A study of Mus musculus with 27 samples.

Results

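The miR-23, miR-27 and miR-24 clusters give rise to 6 mature microRNAs that are followed here, namely miR-23a-3p, miR-23b-3p, miR-27a-3p, miR-27b-3p, miR-24-3p and miR-24-2-5p. They were picked by name, with earlier results of these data known, and are 6 of the 844 miRNAs named over the whole series. Small RNA was sequenced in 27 libraries of C57BL/6 mice. The first set held the suprachiasmatic nucleus (SCN, the seat of the central circadian clock), hypothalamus and cortex, each with 2 libraries. The second followed the SCN in 11 libraries, 1 at each 4 h step from ZT2 to ZT42 (zeitgeber time, in h), the third held SCN neurons labelled AVP, VIP and CCK with 2 libraries each, and the fourth held 2 LP and 2 CTRL libraries of the SCN at CT18 (circadian time, in h). The labels do not spell out LP, although the design text speaks of a search for light-responsive miRNAs. They give no genotype, age or sex, and no means of collecting the neurons. They do not say that replicates came from separate animals, so each p-value measures the spread between libraries, which may be technical.

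A miRNA cluster is transcribed as a single long RNA, from which Drosha and Dicer cut each hairpin into a short duplex. An Argonaute protein keeps a strand of that duplex and uses its seed, bases 2 to 8, to find target mRNAs. Mammals have a pair of miR-23, miR-27 and miR-24 clusters, both known as abundant in endothelial cells and for their part in blood vessel growth. miR-23 is known in human cells to repress mitochondrial glutaminase, miR-27 to restrain fat cell differentiation, and miR-24 to slow cell proliferation. In mouse liver, miR-27b-3p has been reported to repress the clock gene Bmal1.

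The mature sequences show which reads can be told apart between the clusters and are given 5′ to 3′ from the RefSeq table (build GRCm38.p6), with the seed in capitals.
miR-23a-3p: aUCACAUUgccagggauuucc
miR-27a-3p: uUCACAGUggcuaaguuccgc
miR-27b-3p: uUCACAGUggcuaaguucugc
miR-24-3p: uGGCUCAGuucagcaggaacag
miR-24-2-5p: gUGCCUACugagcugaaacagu
miR-24-1-5p: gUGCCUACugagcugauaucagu
miR-3074-5p: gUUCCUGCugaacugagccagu
miR-27a-3p and miR-27b-3p have the same seed and differ by 1 of 21 bases, C19U, with positions counted from the 5′ end and the miR-27a-3p base first. The seed of miR-23a-3p shares its first 5 bases with that of miR-27, and the substitution U6G, counted within the seed from miR-23a-3p to miR-27a-3p, parts them. miR-24-3p is the same molecule from both clusters, so its reads cannot be assigned to either. miR-24-2-5p and miR-24-1-5p come from the opposite arm of the separate copies and share their first 16 bases before they part. miR-3074-5p is read from the other DNA strand and is reverse-complementary to miR-24-3p over 20 bases.

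In the mouse genome (GRCm38), Mir23a, Mir27a and Mir24-2 lie within 404 bases on the plus strand at chr8:84208518-84208921. That cluster is intergenic, except that the last 2 bases of Mir24-2 overlap the long intergenic RNA Gm26532. Mir23b, Mir27b and Mir24-1 span 792 bases at chr13:63300484-63301275, inside the gene 2010111I01Rik on the same strand and antisense to Fancc. Mir23b is intronic there, while Mir27b and Mir24-1 fall in exons of some annotated 2010111I01Rik transcripts. In the Mir24-2 and Mir24-1 hairpins, with the mature arms in capitals, the 3′ arm is the shared miR-24-3p and the 5′ arm is the one that identifies the copy.
Mir24-2: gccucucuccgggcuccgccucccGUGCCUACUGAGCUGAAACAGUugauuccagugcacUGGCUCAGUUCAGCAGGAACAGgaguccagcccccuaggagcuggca
Mir24-1: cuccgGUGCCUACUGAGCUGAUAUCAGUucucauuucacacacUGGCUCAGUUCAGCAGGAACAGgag

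Levels are in CPM (counts per 1e+06 miRNA reads), which is the deposited value divided by 10. Tissue libraries held 1946998 to 3585377 reads, time-course libraries 2604731 to 5133920, neuron libraries 469808 to 2812318 and CT18 libraries 1766808 to 2939619. A miRNA with 0 reads may still reach 3 reads, which is 0.837 to 1.54 CPM for tissue libraries, 0.585 to 1.15 CPM for time-course libraries, 1.07 to 6.39 CPM for neuron libraries and 1.02 to 1.70 CPM for CT18 libraries, a limit that covers counting error only. Together the 6 miRNAs held 1.44% and 1.43% of the SCN reads, 3.18% and 2.97% in hypothalamus, and 4.89% and 4.97% in cortex. Along the SCN time course they held 1.72% to 2.34%. In AVP neurons they held 0.876% and 0.752%, in VIP neurons 0.215% and 0.200%, in CCK neurons 0.633% and 0.755%, and at CT18 1.42% to 1.49%. The 4 sets of libraries may be separate batches, so no miRNA was tested between them and levels set side by side across them are a description.

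All 6 miRNAs were lowest in the SCN, higher in hypothalamus and highest in cortex, and for each of them the replicates of the 3 tissues did not overlap. The miRNAs were chosen with the tissue results in view, so these values describe the members and are not tested. miR-27b-3p, the most abundant of them, had 9005.1 and 8924.1 CPM in the SCN, against 20727.3 and 18847.6 in hypothalamus and 29354.2 and 30274.4 in cortex. It ranked 19th among all miRNAs of both SCN libraries and 7th in both cortex libraries. miR-24-3p had 4284.0 and 4326.1 CPM in the SCN, against 8961.4 and 8806.5 in hypothalamus and 16305.2 and 16209.3 in cortex. The means of miR-24-3p were 4305 ± 29.8, 8884 ± 110 and 16257 ± 67.8 CPM (SD, n = 2 each), so the steps between tissues far exceeded the spread between replicates.

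The less abundant members kept the same order of tissues. miR-27a-3p, with the seed of miR-27b-3p, had 370.2 and 321.5 CPM in the SCN, against 978.3 and 899.7 in hypothalamus and 1527.2 and 1416.1 in cortex. miR-23a-3p had 390.7 and 399.6 CPM in the SCN, against 552.7 and 615.7 in hypothalamus and 929.3 and 982.4 in cortex. Its paralogue miR-23b-3p had 331.9 and 356.9 CPM in the SCN, against 586.0 and 572.0 in hypothalamus and 815.5 and 846.3 in cortex. The 2 miR-23 paralogues thus had nearly equal levels in every tissue library, unlike the miR-27 pair. miR-24-2-5p, the arm that marks the chromosome 8 copy, had only 2.6 and 2.2 CPM in the SCN (6 and 8 reads), against 8.3 and 5.4 in hypothalamus (19 and 12 reads) and 11.1 and 15.4 in cortex (28 and 30 reads). It passed the filter, 10 CPM in at least 2 libraries, through cortex alone.

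**Figure D1:**
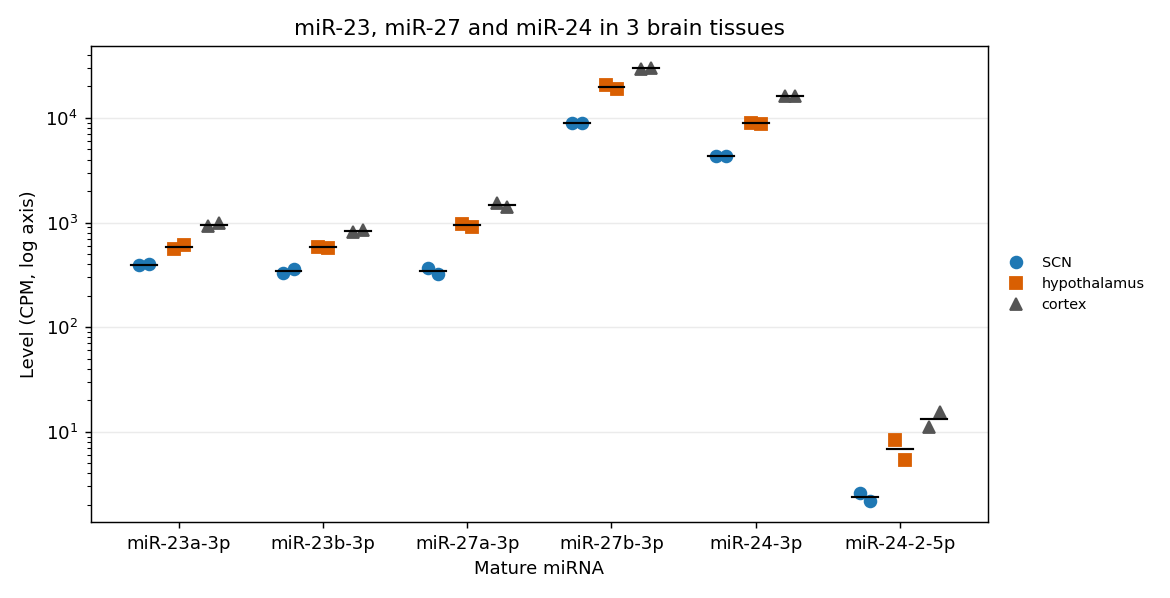
Level of each miRNA (CPM, log axis) in each library of SCN, hypothalamus and cortex, with points for the 2 replicates and bars for their mean. The SCN points lie lowest and the cortex points highest for all 6 miRNAs, with miR-27b-3p at 9005.1 and 8924.1 CPM in the SCN against 29354.2 and 30274.4 in cortex.

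On the log2 scale of a limma-trend model over all 378 miRNAs that passed the filter, the fold of the SCN over cortex was −2.09 for miR-27a-3p (SE 0.124), −1.92 for miR-24-3p (SE 0.0791) and −1.73 for miR-27b-3p (SE 0.0794). It was −1.27 for both miR-23a-3p (SE 0.119) and miR-23b-3p (SE 0.117), and −2.40 for miR-24-2-5p (SE 0.565). The log2 fold of the SCN over hypothalamus was −1.44 for miR-27a-3p, −1.14 for miR-27b-3p, −1.05 for miR-24-3p, −0.75 for miR-23b-3p and −0.56 for miR-23a-3p. For miR-24-2-5p it was −1.45, with a 95% interval of −2.72 to −0.17. The median log2 fold of the 6 miRNAs was −1.83 for the SCN against cortex, beside 0.06 over all 378 miRNAs. For the SCN against hypothalamus it was −1.09, beside −0.29 over all. For hypothalamus against cortex it was −0.68, beside 0.41 over all.

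As a description only, the model gave an adjusted p under 0.05 with a lower level in the SCN than in cortex for all 6, miR-24-2-5p included although it entered through cortex alone. There 38.9% of the 378 miRNAs were lower, 41.3% higher and 80.2% changed in either direction. The same held for all 6 against hypothalamus, where 42.9% of all miRNAs were lower, 28% higher and 70.9% changed. In hypothalamus against cortex it held for 5 of the 6, where 16.4% of all miRNAs were lower, 41.8% higher and 58.2% changed, and miR-24-2-5p was the exception. For miR-24-2-5p against hypothalamus it held in 3 of 10 settings, the reported one included, and was lost with median-ratio scaling. Replicates that do not overlap were common among all miRNAs, at 87.3% for the SCN against hypothalamus, 90.2% for the SCN against cortex and 83.9% for hypothalamus against cortex. These counts describe contrasts that were known when the miRNAs were chosen, and nothing is read from them. Median-ratio scaling in place of the fixed total moved all log2 folds by 0.26 for the SCN against hypothalamus, by −0.16 for the SCN against cortex and by −0.42 for hypothalamus against cortex, and the sign of the log2 fold was negative for all 6 in each, whether or not it passed.

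Markers of other cell types moved with the tissues. The summed level of the 7 vascular miRNAs found, of 9 listed, was 3983 to 4067 CPM in the SCN, against 11276 to 12034 in hypothalamus and 11232 to 11697 in cortex, and none of the 7 was at 0 in any of these tissues. Among them, the smooth muscle miRNA miR-143-3p averaged 2074 ± 158 CPM in the SCN, against 7008 ± 539 in hypothalamus and 5990 ± 29.5 in cortex (SD, n = 2 each). The endothelial miR-126-3p averaged 1151 ± 103 CPM in the SCN, against 2577 ± 39.5 in hypothalamus and 3289 ± 356 in cortex (SD, n = 2 each). The 8 neuronal miRNAs summed to 36807 to 41583 CPM in the SCN, against 56330 to 59043 in hypothalamus and 158820 to 164979 in cortex. The microglia and leukocyte sum was 1894.5 to 2076.6 CPM in the SCN, against 2483.5 to 2691.8 in hypothalamus and 3297.5 to 3539.1 in cortex, with miR-142-3p at 0 in the SCN. The muscle sum was 45.3 to 68.8 CPM in the SCN, against 317.2 to 325.1 in hypothalamus and 400.0 to 465.2 in cortex. The oligodendrocyte sum was 1003.7 to 1550.8 CPM in the SCN, against 3566.1 to 4185.3 in hypothalamus and 1458.1 to 1952.9 in cortex. The erythrocyte sums of the 3 tissues overlapped, although 3 of the 4 miRNAs were lower and 1 higher in the SCN. Their median log2 fold was −2.73 for the SCN over hypothalamus and −2.85 over cortex. The vascular sums of hypothalamus and cortex overlapped, while the 6 cluster miRNAs and the neuronal, microglia and leukocyte, and muscle sums were higher in cortex than in hypothalamus. The part of these lists in the tissue differences was not tested. In bulk tissue, fewer cells of a type and less RNA per cell cannot be told apart.

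The neuron libraries separated miR-23b-3p from its cluster neighbours. VIP neurons, which receive light input in the ventral SCN, had far more miR-23b-3p than AVP neurons, which mark the dorsal SCN, or CCK neurons. The same VIP libraries had far less miR-27b-3p, miR-27a-3p and miR-24-3p. miR-27b-3p had 6606.0 and 5525.1 CPM in AVP neurons, 87.5 and 145.8 in VIP neurons, and 4943.3 and 5505.2 in CCK neurons. miR-23b-3p, from the same primary transcript, had 93.2 and 35.2 CPM in AVP neurons, 1696.7 and 1460.8 in VIP neurons, and 119.3 and 71.8 in CCK neurons. Neither miRNA's VIP libraries overlapped those of the other neurons, and the directions were opposite.

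miR-24-3p had 1880.5 and 1891.7 CPM in AVP neurons, 337.4 and 383.2 in VIP neurons, and 1167.6 and 1842.6 in CCK neurons. miR-27a-3p had 117.5 and 65.0 CPM in AVP neurons, 1.7 and 2.5 in VIP neurons (5 and 7 reads), and 68.1 and 108.8 in CCK neurons. The VIP libraries were again the low ones for both, and the AVP and CCK libraries of miR-27a-3p overlapped. miR-27a-3p passed the filter through AVP and CCK neurons alone, so a low level in VIP neurons was built into its passing. miR-23a-3p was scarce in every neuron library, with 61.5 and 0 CPM in AVP neurons (33 and 0 reads), 25.2 and 10 in VIP neurons (71 and 28 reads), and 27.6 and 22.5 in CCK neurons (13 and 11 reads). Its groups overlapped, and the AVP libraries held both its highest and its lowest value. miR-24-2-5p had 0 reads in all 6 neuron libraries.

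**Figure D2:**
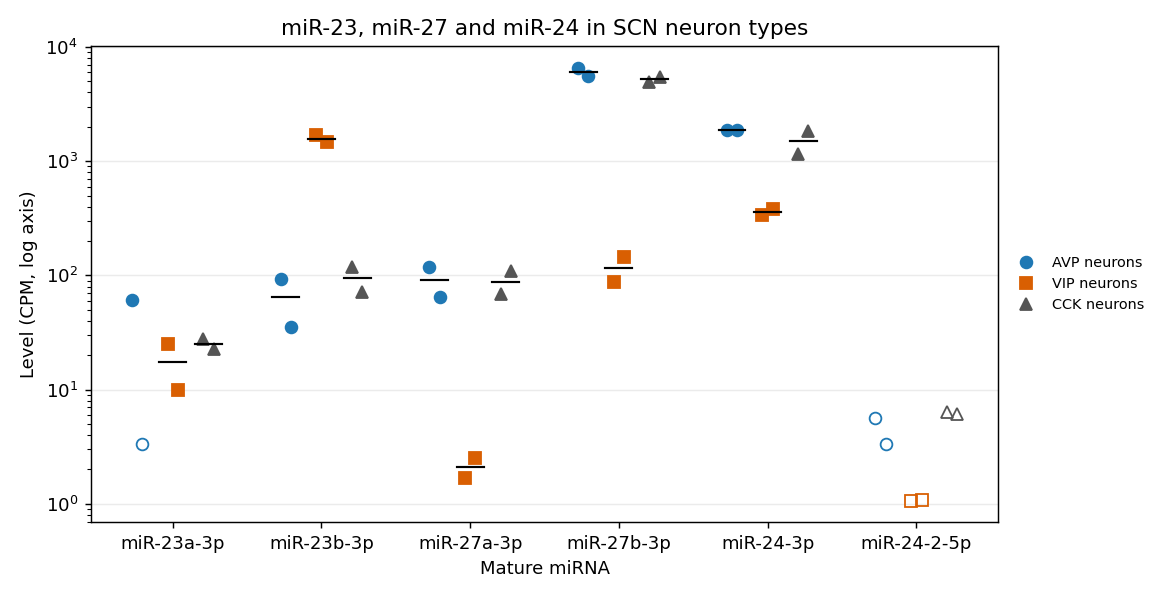
Level of each miRNA (CPM, log axis) in each library of AVP, VIP and CCK neurons, with bars for the mean of 2 replicates and open symbols for libraries with 0 reads, drawn at their limit of 3 reads. VIP neurons lie above the others for miR-23b-3p, at 1696.7 and 1460.8 CPM, and below them for miR-27a-3p, miR-27b-3p and miR-24-3p.

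Set against VIP neurons, AVP neurons had 52.0-fold more miR-27b-3p by mean CPM, with a log2 fold of 5.74 (SE 0.308, limma adjusted p = 0.00127 over 305 miRNAs). miR-24-3p was 5.23-fold higher, with a log2 fold of 2.39 (SE 0.289, limma adjusted p = 0.00686). miR-27a-3p was 43.5-fold higher, with a log2 fold of 5.34 (SE 0.921), given as a description because of how it passed the filter. miR-23b-3p was 24.6-fold lower in AVP neurons, with a log2 fold of −4.78 (SE 0.617, limma adjusted p = 0.00785). miR-23a-3p did not pass, at a log2 fold of −2.69 (SE 3.28, limma adjusted p = 0.548) that rests on its 0 reads in AVP replicate 2. Apart from miR-27a-3p, 2 of the 6 cluster miRNAs were called higher and 1 lower in AVP neurons, 1 did not pass and 1 had 0 reads, beside 32.8% of all 305 miRNAs changed, 18% higher and 14.8% lower. The groups did not overlap for those 3, nor for miR-27a-3p, as for 64.6% of all miRNAs.

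Without AVP replicate 1, miR-23a-3p passed at a log2 fold of −7.32 (limma adjusted p = 0.0488), while without AVP replicate 2 its fold turned to 1.95. Median-ratio scaling moved all AVP to VIP log2 folds by −0.65 and kept the 3 calls, at 5.09 for miR-27b-3p, 1.74 for miR-24-3p and −5.43 for miR-23b-3p.

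Set against CCK neurons, VIP neurons had 16.5-fold more miR-23b-3p, with a log2 fold of 4.09 (SE 0.617, limma adjusted p = 0.0136). miR-27b-3p was 44.8-fold lower in VIP neurons, with a log2 fold of −5.53 (SE 0.308, limma adjusted p = 0.00302). miR-27a-3p was 42.1-fold lower, with a log2 fold of −5.32 (SE 0.921, again a description), and miR-24-3p 4.18-fold lower, with a log2 fold of −2.03 (SE 0.289, limma adjusted p = 0.0130). miR-23a-3p did not pass, at −0.65 (SE 3.28, limma adjusted p = 0.945). This comparison shares its VIP libraries with the one above. Apart from miR-27a-3p, 1 of the 6 was called higher and 2 lower in VIP neurons, beside 29.8% of all 305 miRNAs, 8.2% higher and 21.6% lower, and the groups of 62.6% of all miRNAs did not overlap.

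The VIP to CCK calls depended on all libraries being present. Without CCK replicate 1 only 1 of these 3 passed, miR-27b-3p, and without CCK replicate 2 none did (limma adjusted p = 0.0536 for miR-27b-3p). Over all miRNAs, 91 calls became 2 and 1 in those fits, in which the lone CCK library is assumed to vary like the other groups. miR-23b-3p also missed the threshold without VIP replicate 1 (limma adjusted p = 0.0583) or VIP replicate 2 (limma adjusted p = 0.0564), with log2 folds of 3.98 and 4.19. Median-ratio scaling moved all VIP to CCK log2 folds by 0.82, which left miR-23b-3p at 4.91, miR-27b-3p at −4.71 and miR-24-3p at −1.21, all past the threshold.

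Between AVP and CCK neurons none of the 5 passed, beside 16.7% of all 305 miRNAs called by limma (2.62% higher, 14.1% lower) and 88 at an unadjusted p under 0.05. The groups did not overlap for miR-24-3p and miR-27b-3p, 2 of 5, as for 58% of all miRNAs. The log2 fold was 0.21 for miR-27b-3p (95% interval −0.60 to 1.03) and 0.36 for miR-24-3p (−0.40 to 1.13). It was −0.69 for miR-23b-3p (−2.32 to 0.94), 0.02 for miR-27a-3p (−2.41 to 2.45) and −3.33 for miR-23a-3p (−11.98 to 5.32). The intervals for both miR-23 paralogues and miR-27a-3p include differences of more than 4-fold.

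Markers of other cell types were uneven in the neuron libraries. The vascular sum, 3983 to 4067 CPM in SCN tissue, was 9.9 and 74.5 CPM in AVP neurons, with 4 of the 7 at 0 in both libraries, miR-126-3p and miR-145a-5p among them. It was 63.0 and 84.8 CPM in VIP neurons and 157.4 and 215.5 in CCK neurons. The oligodendrocyte sum was 45.1 to 134.3 CPM in AVP neurons, 756.1 to 1249.1 in VIP neurons and 630.6 to 741.5 in CCK neurons, with miR-219-5p and miR-219-2-3p at 0 in all 3 neuron types. The VIP range of that sum overlapped the 1003.7 to 1550.8 CPM of SCN tissue. The erythrocyte sum was 2107 to 2164 CPM in AVP neurons, 943.1 to 1169.7 in VIP neurons and 980.1 to 1014.7 in CCK neurons, above the 486.2 to 583.1 CPM of SCN tissue. In AVP and CCK neurons it was miR-486-5p alone, with miR-144-3p, miR-144-5p and miR-451a at 0. The microglia and leukocyte sum was 0 to 48.5 CPM in AVP neurons, 111.9 to 158.6 in VIP neurons and 38.3 to 75.9 in CCK neurons, and the muscle sum was at most 29.4 CPM in any of them. The neuronal sum was 5658 to 6210 CPM in AVP neurons, 13733 to 18759 in VIP neurons and 11877 to 13664 in CCK neurons. All of these lay below the 36807 to 41583 CPM of SCN tissue, and miR-137-3p and miR-138-5p were at 0 in both AVP libraries. Depth differed as well, at 537185 and 908476 reads in AVP neurons, 2812318 and 2786568 in VIP neurons, and 469808 and 487360 in CCK neurons. The part of these sums and of depth in the VIP pattern was not tested.

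Ratios within a library do not depend on the scaling, although they compare reads and not molecules. The ratio of miR-27b-3p to miR-23b-3p was 70.9 and 157 in AVP neurons, 0.0516 and 0.0998 in VIP neurons, and 41.4 and 76.7 in CCK neurons. In tissue it was 27.1 and 25 in the SCN, 35.4 and 33.0 in hypothalamus, and 36.0 and 35.8 in cortex. In the other SCN libraries it ranged from 9.81 to 23.2 along the time course, with a median of 13.1, and from 13.4 to 14.9 at CT18. miR-27b-3p thus had more reads than miR-23b-3p in 25 of 27 libraries, and the exceptions were both VIP libraries. With 2 libraries against 2, an exact permutation test can reach no p below 0.33, so no test of these ratios was made.

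The miR-24-3p to miR-27b-3p ratio was 0.285 and 0.342 in AVP neurons, 3.86 and 2.63 in VIP neurons, and 0.236 and 0.335 in CCK neurons. In the tissue set it was 0.476 and 0.485 in the SCN, 0.467 and 0.432 in hypothalamus, and 0.555 and 0.535 in cortex. Over the time course it ran from 0.712 to 1.17, so miR-24-3p and miR-27b-3p were close to equal there. At CT18 it was only 0.00304 to 0.00745.

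**Figure D3:**
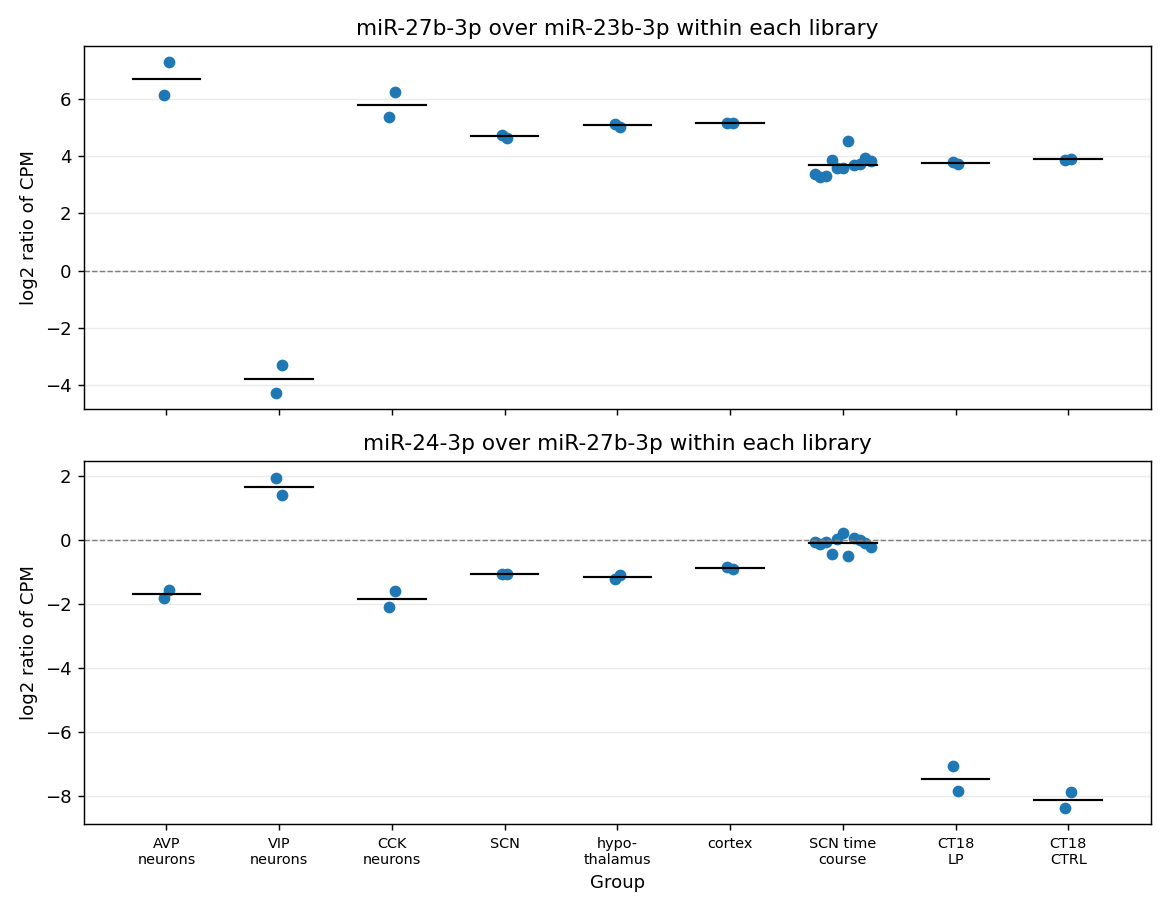
The log2 ratio of miR-27b-3p to miR-23b-3p (upper panel) and of miR-24-3p to miR-27b-3p (lower panel) in each library, by group, with bars for the group mean. Both VIP libraries stand apart in the upper panel, below 0, and the 4 CT18 libraries stand apart in the lower panel, between −8.36 and −7.07.

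The share of miR-23a-3p in all miR-23 reads was 48.5% to 54.1% in the tissue set, 42% to 48% over the time course and 48.2% to 50.3% at CT18. In neurons it was 39.8% and 0% (AVP), 1.46% and 0.680% (VIP), and 18.8% and 23.9% (CCK). The share of miR-27a-3p in all miR-27 reads was low throughout, from 1.16% to 6.57% over the 27 libraries. In VIP neurons it was 1.91% and 1.69%, inside the range of the other libraries. By assigned reads, miR-27a-3p was thus the minor miR-27 in every library. The pair differs by 1 base, and the labels do not say how such reads were assigned. miR-23a-3p held less than its partner in all neuron and time-course libraries, and the ZT10 share of 42% was close to the 39.8% of AVP replicate 1. Summing each paralogue pair left the AVP to VIP log2 folds at −4.43 for miR-23 and 5.73 for miR-27.

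At CT18, miR-24-3p was scarce in all 4 libraries, LP and CTRL alike. It had 93.4 and 53.1 CPM in LP libraries (165 and 156 reads), against 36.6 and 52.8 in CTRL libraries (65 and 102 reads). Along the SCN time course it had 7289.4 to 11135.1 CPM, with a median of 9107.6. The CT18 mean of 59.0 CPM was 157-fold below the time-course mean of 9231 CPM. Among the 65 miRNAs with at least 1000 CPM on average in the time course, a ranking chosen after the data were seen, only miR-22-3p stood lower at CT18 relative to the time course, at 158-fold. The third, miR-151-5p, was 20.4-fold lower. The vascular sum differed between these sets too, at 985 to 1641 CPM over the CT18 libraries against 3264 to 6414.5 CPM in the time course, with miR-143-3p 8.78-fold lower at CT18, and its part in the miR-24-3p difference was not tested. miR-24-2-5p had 0 reads in all 4 CT18 libraries, against 19.6 to 40.1 CPM in the time course.

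The cluster neighbours of miR-24-3p were not low at CT18. miR-27b-3p had 12543.5 and 12041.8 CPM in LP libraries, against 12058.4 and 12208.1 in CTRL libraries, and 7955.3 to 12512.2 in the time course. miR-23b-3p had 894.4 and 898.2 CPM in LP libraries, against 813.2 and 818.5 in CTRL libraries. miR-23a-3p had 831.5 and 854.6 CPM in LP libraries, against 822.7 and 781.7 in CTRL libraries. miR-27a-3p had 571.0 and 445.7 CPM in LP libraries, against 463.4 and 524.2 in CTRL libraries. The values of each lie within or near the range of the time course, and the LP and CTRL libraries overlapped for miR-27a-3p and miR-27b-3p. CT18 and the time course are separate sets of libraries, so the condition and the batch cannot be told apart.

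Between LP and CTRL, limma called 0 of the 5 cluster miRNAs tested and 0 of 317 miRNAs in all (0%), with 1 at an unadjusted p under 0.05. The log2 fold was 0.68 for miR-24-3p (95% interval −0.21 to 1.57), 0.14 for miR-23b-3p (−0.32 to 0.59) and 0.07 for miR-23a-3p (−0.39 to 0.53). For miR-27a-3p it was 0.03 (−0.51 to 0.58) and for miR-27b-3p 0.02 (−0.35 to 0.39), and all 5 had a limma adjusted p of 0.992. The LP and CTRL libraries did not overlap for miR-23a-3p, miR-23b-3p and miR-24-3p, 3 of 5, beside 18.6% of all 317 miRNAs. Without LP replicate 2, miR-24-3p passed at a log2 fold of 1.09 (limma adjusted p = 0.0282), in a fit where 21 of all miRNAs passed. The vascular sum was 985 to 1641 CPM in LP libraries, against 1028 to 1226 in CTRL libraries.

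Over the SCN time course no member had a 24 h rhythm that passed. The limma-trend test of a cosine and a sine term called 0 of 357 miRNAs (0%), with 6 at an unadjusted p under 0.05. The members' limma adjusted p ran from 0.950 to 0.976. Their fitted amplitudes were 0.05 for miR-27b-3p, 0.06 for miR-24-2-5p, 0.07 for miR-23a-3p, miR-23b-3p and miR-24-3p, and 0.13 for miR-27a-3p on the log2 scale, beside a median of 0.24 over all 357 miRNAs. With 1 library per time, the spread at a given time is unknown.

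The members varied from library to library all the same. miR-27a-3p ranged from 271.7 CPM at ZT26 to 696.0 at ZT30, with a median of 567.4. miR-24-2-5p ranged from 19.6 CPM at ZT6 to 40.1 at ZT30, with a median of 31.3. Both had their 4 lowest values at ZT6, ZT10, ZT26 and ZT38, and both lay above their medians at ZT14, ZT22, ZT30 and ZT34. miR-23a-3p ranged from 441.2 CPM at ZT26 to 853.1 at ZT2, with a median of 624.9, and miR-23b-3p from 539.3 at ZT26 to 934.1 at ZT2, with a median of 789.4. miR-27b-3p ranged from 7955.3 CPM at ZT6 to 12512.2 at ZT26, the library where the other chromosome 13 product, miR-23b-3p, was lowest.

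**Figure D4:**
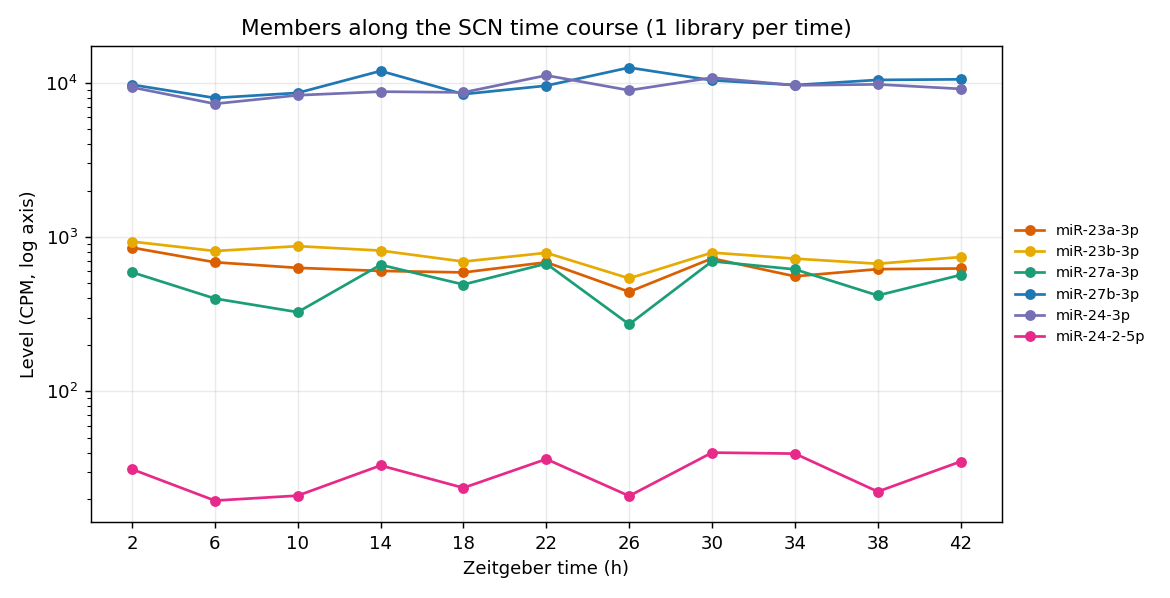
Level of each miRNA (CPM, log axis) along the SCN time course from ZT2 to ZT42, with 1 library per time. miR-27a-3p and miR-24-2-5p dip together at ZT6, ZT10, ZT26 and ZT38, and miR-27b-3p peaks at ZT26, at 12512.2 CPM, where miR-23a-3p and miR-23b-3p are lowest.

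Of the 15 pairs of members compared over the 11 time-course libraries, miR-27a-3p and miR-24-2-5p, neighbours on chromosome 8, were the most closely related. Their log2 levels gave Pearson's r = 0.89 (permutation p = 1.3e-04, adjusted 0.00195) and Spearman's rho = 0.91 (permutation p = 2.4e-04, adjusted 0.00360). Without the 2 libraries farthest from the median of miR-27a-3p, r was 0.94, and with median-ratio scaling it was 0.87 (permutation p adjusted 0.00540). Among 356 other miRNAs, miR-24-2-5p ranked 3rd in likeness to miR-27a-3p, and miR-27a-3p ranked 6th in likeness to miR-24-2-5p. The remaining miRNA made from chromosome 8 alone, miR-23a-3p, was less related to either. It gave r = 0.54 with miR-27a-3p (permutation p adjusted 0.260) and r = 0.31 with miR-24-2-5p (permutation p adjusted 0.510). Without the 2 libraries farthest from the median of miR-23a-3p, these were 0.08 and 0.02.

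miR-23a-3p and miR-23b-3p, from different chromosomes, gave r = 0.86 (permutation p = 0.00176, adjusted 0.0132) and rho = 0.72 (permutation p = 0.0161, adjusted 0.0818). That relation rested on few libraries, since r was 0.45 without the 2 farthest, and it was lost with median-ratio scaling, at r = 0.54 (permutation p adjusted 0.314). miR-23b-3p and miR-27b-3p, neighbours on chromosome 13, gave r = −0.47 (permutation p = 0.143, adjusted 0.306) and rho = −0.28 (permutation p = 0.403, adjusted 0.721), and r = −0.11 without the 2 farthest. miR-24-3p and miR-24-2-5p, arms of the same hairpin, gave r = 0.71 (permutation p = 0.0116, adjusted 0.0579) and rho = 0.72 (permutation p = 0.0164, adjusted 0.0818), and r = 0.59 without the 2 farthest. miR-27b-3p and miR-24-3p gave r = 0.37 (permutation p adjusted 0.446), and r = 0.76 without the 2 farthest. With median-ratio scaling their r was 0.79 (permutation p adjusted 0.0451) and rho was 0.66 (permutation p adjusted 0.238). Under that scaling, r was 0.46 without the 2 farthest. All these values share library depth and scaling.

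By the same measure over the 11 libraries, the most alike of 351 miRNAs outside the 6 were miR-153-3p for both miR-27a-3p (r = 0.94) and miR-24-2-5p (r = 0.94). After it came miR-342-3p (0.89) and miR-337-3p (0.88) for miR-27a-3p, and miR-544-5p (0.94) and miR-219-5p (0.94) for miR-24-2-5p. For miR-23a-3p they were miR-376b-5p (0.92), miR-16-5p (0.91) and miR-384-5p (0.90), and for miR-23b-3p miR-495-3p (0.90), miR-29a-3p (0.90) and miR-466b-3p (0.85). For miR-27b-3p they were miR-192-5p (0.86), miR-143-3p (0.84) and miR-101a-3p (0.77), and for miR-24-3p miR-99a-5p (0.92), miR-338-3p (0.77) and miR-544-5p (0.77).

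The opposite arms were rare beside the 3′ arms in tissue and the time course, but not always in neurons. In AVP replicate 2, miR-23b-5p had 19.8 CPM (18 reads) beside 35.2 CPM (32 reads) of miR-23b-3p. Of 8 other products of the hairpins, 7 were found and miR-3074-2-3p was listed in no library. Their summed level was 17.5 to 19.8 CPM in the SCN, 22.7 to 27.7 in hypothalamus, 30.1 to 37.6 in cortex and 10.4 to 33.0 along the time course. It was 39.1 to 69.4 CPM in AVP neurons, 0 to 1.7 in VIP neurons and 0 to 46.8 in CCK neurons, where few reads carry these values. In LP libraries it was 12.2 to 22.5 CPM, against 9.4 to 15.3 in CTRL libraries. Only miR-27b-5p and miR-24-1-5p passed the filter in tissue, neither of them through the SCN, so their low SCN levels were built into passing and are not tested. miR-27b-5p had 3.5 and 3.3 CPM in the SCN, against 12.2 and 6.3 in hypothalamus and 17.4 and 11.3 in cortex.

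The arms that identify the miR-24 copies differed in level between the sets of libraries. miR-24-1-5p, from chromosome 13, had 0.4 and 4.1 CPM in the SCN, against 9.2 and 7.6 in hypothalamus and 14.6 and 12.8 in cortex, close to the levels of miR-24-2-5p in the last 2 tissues. Along the SCN time course it had 0.2 to 3.4 CPM, all below the 19.6 to 40.1 CPM of miR-24-2-5p. As a percentage of miR-24-3p, miR-24-2-5p was 0.0509% to 0.0950% in tissue and 0.230% to 0.411% in the time course. Both 5′ arms had 0 reads in every neuron library. miR-3074-5p, read from the strand opposite miR-24, had 10.2 and 5.8 CPM in the SCN (23 and 21 reads), against 1.7 and 3.1 in hypothalamus (4 and 7 reads) and 1.5 and 0.5 in cortex (4 and 1 reads). Among the tissues it was thus highest in the SCN, where miR-24-3p was lowest, while so few reads cannot order hypothalamus and cortex. The other sets did not show that opposition. miR-3074-5p had 2.9 to 11.1 CPM along the time course, where miR-24-3p had 7289.4 to 11135.1, and 3.9 to 9.8 in CTRL libraries at CT18, where miR-24-3p had 36.6 to 52.8. In neurons it had 0 and 49.6 CPM (AVP), 1.7 and 0 (VIP), and 29.8 and 0 (CCK).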

How the data were processed

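Small RNA was sequenced from tissue or neurons of mouse brain. Tissue was snap-frozen, RNA was extracted with Trizol and Illumina's protocols were followed for the libraries, per the labels' protocols. Bowtie and GRCm38 (mm10) are named, without version or role, per the submitters' processing notes. Each deposited value is a normalized signal of 1 mature miRNA, which the authors scaled to a total near 10000000 per library (10004170 to 10021510), as the values themselves show. miRNAs not listed were taken as 0. All values were whole multiples of 1 step per library (100%), which gave the read numbers and depth. 0 columns lacked a sample.

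The model was limma-trend on log2(value + 1), fitted with limma 3.58.1 under R 4.3.3, with 1 model each for the 3 tissues, the 3 neuron types, CT18 and the time course (8 residual degrees of freedom). miRNAs needed a value of 100 (10 CPM) in at least 2 libraries of a model, or 3 in the time course. p-values are two-sided, Benjamini-Hochberg adjusted over all miRNAs tested, with a threshold of 0.05. A log2 fold on this scale understates changes of low miRNAs that have reads, while a library with 0 reads can make it too large. For miR-23a-3p in AVP against CCK neurons it was −3.33, although the mean CPM was 1.23-fold higher in AVP neurons. Fold values are ratios of mean CPM. Correlations used 100000 permutations, adjusted over 15 pairs. On simulated data, 4-fold changes were recovered in 100% of cases for the tissue, neuron and CT18 models (359, 297 and 313 miRNAs). There, 2-fold changes were recovered in 77.8%, 82.1% and 82.8%. The simulation gave all miRNAs of every set the same relative spread. Real neuron replicates could differ more, as with miR-23b-3p (93.2 and 35.2 CPM) and miR-23a-3p (61.5 and 0 CPM) in AVP neurons. These rates may therefore be too high for the neuron model. Scaling, pseudocount, filter, groups in the model, replicate block and each library left out were varied.

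The members, lists and tests were chosen with earlier results of these data known. Named miRNAs are the members, the other products of their hairpins, the 3 miRNAs most alike to each member over the time course, and the vascular markers highest in tissue. miR-22-3p and miR-151-5p were chosen after their values were seen.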

Additional observations from a re-analysis of the deposited data

How the results depend on the processing

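Of the counts and summed values recomputed, 94 stayed at or near the reported value and 3 moved. A count of 3 members called in place of 4 was taken as near, and summed values were judged by sign and call alone. A count that stayed can hide a change of members. With median-ratio scaling, the time-course pair miR-23a-3p and miR-23b-3p lost the threshold while miR-27b-3p and miR-24-3p gained it. The number of members called, miR-27a-3p included, was 4 for VIP against CCK neurons, and 0 to 3 when 1 library was left out (1 without CCK replicate 1, 0 without CCK replicate 2), and for LP against CTRL it was 0 to 1. For single miRNAs, with tissue folds judged by size alone, 432 values stayed, 29 moved, 13 lost and 3 gained the threshold, and 19 changed sign. Not among those 13, miR-24-2-5p in the SCN against hypothalamus was past the threshold in only 3 of 10 settings. The sign changes concerned values that had not passed. Leaving out 1 library each gave miR-23a-3p −7.32 to 1.95 for AVP against VIP neurons, −7.97 to 1.30 for AVP against CCK and −1.31 to 0.016 for VIP against CCK. The last was 0.17 with median-ratio scaling and 1.54 with quantile normalization. For AVP against CCK, the same step gave miR-23b-3p −1.39 to 0.010 and miR-27a-3p −0.40 to 0.45. For LP against CTRL it gave miR-27a-3p −0.15 to 0.21 and miR-27b-3p −0.011 to 0.048. There, median-ratio scaling gave −0.0088 for miR-23a-3p, −0.047 for miR-27a-3p and −0.062 for miR-27b-3p, and quantile normalization gave −0.061 for miR-23a-3p, −0.024 for miR-27a-3p and −0.14 for miR-27b-3p. With median-ratio scaling, the time-course r of miR-23b-3p became 0.053 with miR-27b-3p and 0.30 with miR-24-3p. The cause was not tested.

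The labels do not say whether same-numbered libraries were paired. Deviations of same-numbered libraries correlated by −0.09 to 0.25 over the comparisons, which cannot settle whether they share an animal or a preparation. With the replicate number as a block, miR-23b-3p, miR-27b-3p and miR-24-3p kept their calls in AVP against VIP and in VIP against CCK neurons. Calls over all miRNAs for VIP against CCK neurons were 46 instead of 91. In the tissues, the log2 folds of the 6 members kept their sign under the block, but miR-24-2-5p in the SCN against hypothalamus missed the threshold (limma adjusted p = 0.0594). Count-based tests were planned but not run, because the deposited values are normalized. Few reads limit miR-24-2-5p and, in neurons, miR-23a-3p and miR-27a-3p.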
